A study of Mus musculus with 18 samples.

Results

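Antiviral effectors of interferon are the proteins that act on a virus or on the cell it has entered, after interferon signalling has switched their genes on. The genes described here were taken from a list of 10, Rsad2, Cmpk2, Mx1, Mx2, Bst2, Ifitm3, Ifi44, Ifi35, Eif2ak2 and Samhd1. Values were available for 8 of them, out of 33440 genes in all, and Mx1 and Mx2 were not analysed here.

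Viral RNA or DNA inside a cell, and ligands of toll-like receptors outside it, lead to phosphorylation of IRF3, which enters the nucleus and induces type I interferon and a set of target genes directly. Interferon then acts back on the same and neighbouring cells through JAK kinases and transcription factors that bind the interferon-stimulated response element, a repeat of GAAA spaced by a pair of bases. IRF3 binds closely related sequences, so that many of these genes can be switched on with or without interferon. Adipocytes express toll-like receptors and the interferon receptor and are known to turn on interferon-stimulated genes when these are engaged.

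Both experiments addressed which genes lie downstream of IRF3 in mouse adipocytes. In the first, cells of the inguinal stromal vascular fraction (SVF) of IRF3-2D mice, donors of 4 to 6 weeks of age, were differentiated into adipocytes in culture. These mice carry a constitutively active mutant Irf3 allele that stays silent until Cre recombinase acts. On day 6 the cells were transduced with AAV-GFP-Cre (FI3OE, 3 libraries) or with AAV-GFP (WT, 3 libraries), and RNA was harvested on day 8. The WT cells therefore carried the unrecombined allele and the virus, and FI3OE cells had received Cre in addition to expressing active IRF3. In the second, translating ribosome affinity purification (TRAP), a pulldown of GFP-tagged ribosomes with the RNA on them, was carried out on frozen epididymal white adipose tissue (eWAT) of Ad-NuTRAP mice (WT, 6 libraries) and FI3KO-Ad-NuTRAP mice (FI3KO, 6 libraries), in which Irf3 is targeted in adipocytes. These were C57BL/6 mice, and all 12 libraries came from animals fed a high-fat diet (HFD) for 8 weeks at thermoneutrality. The methods give male sex and an age of 8 weeks at the start for mice kept on this diet for longer, and do not give those of the TRAP animals separately. The labels call the libraries biological replicates and do not name separate cultures or animals, so that p-values measure the spread between these libraries.

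Total estimated reads per library were between 21541334 and 36932452 for the SVF-derived adipocytes and between 25259869 and 40490283 for the TRAP libraries. The group labels were checked on Irf3 itself. It amounted to 92.1, 100.3 and 90.8 CPM (a gene's estimated reads as a share of its library's total, scaled to the same total in every library) in the FI3OE libraries and to 58.6, 56.9 and 56.8 CPM in the WT libraries, with no overlap (log2 fold change 0.73 with a standard error, SE, of 0.046, adjusted p = 3.3e-07, edgeR's quasi-likelihood test). In TRAP RNA it ranged from 12.4 to 18.8 CPM in FI3KO and from 17.2 to 23.2 CPM in WT (log2 fold change -0.35, adjusted p = 0.0198 in edgeR), but the direction turned to 0.71 (adjusted p = 0.00181) once the average transcript length entered the fit. The protein-coding transcript Irf3-202 was assigned 0 reads in all 6 FI3KO libraries and between 164 and 388 reads in the 6 WT libraries. Other protein-coding transcripts held more of the reads of Irf3 in FI3KO than in WT, with 29.7% against 0.53% for Irf3-211, 23.13% against 10.12% for Irf3-213 and 13.45% against 4.36% for Irf3-201. The summed level of 12 adipocyte markers was 7370 to 7690 CPM over the SVF-derived libraries and 27000 to 33800 CPM over the TRAP libraries. Markers of other cell types were present in the cultures too. There were 18200 to 18700 CPM of 11 fibroblast and preadipocyte markers and 2190 to 2430 CPM of 15 macrophage markers, against 927 to 2680 CPM and 16.7 to 103 CPM in TRAP RNA. The collagen genes Col1a1, Col3a1 and Col1a2 made up most of the fibroblast sum in culture, with WT means of 6839, 5930 and 4490 CPM. Which cells this RNA came from was not tested. In bulk RNA, fewer cells of a type and less RNA per cell cannot be told apart.

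Promoter sequences are shown because they let the shared interferon-response core be seen apart from any expression value. Each of the 8 genes matched RefSeq by symbol (GRCm38.p6), and the stretch from 250 bases before to 50 bases after the transcription start was searched on both strands for GAAA followed, after any 2 bases, by a second GAAA, the core of the interferon-stimulated response element. It was found in 4 of the 8, Rsad2, Bst2, Ifitm3 and Eif2ak2, and in 3.44% of 32851 promoters of the same length. The shorter core, GAAA and GAA with any 2 bases between them, which every match to the longer one contains, added Ifi44, so that 5 of the 8 held it, against 8.56% of all promoters. Below are 180 bases of each of these 5, from 150 bases before the start to 30 after it, and the same stretch of Cmpk2 for comparison, all read 5′ to 3′ on the strand of the gene with the matches in capitals. All but Cmpk2, which is on the plus strand, are transcribed from the minus strand. The stretches are chr12:26456423-26456602 for Rsad2, chr8:71537443-71537622 for Bst2, chr7:141010715-141010894 for Ifitm3, chr17:78882543-78882722 for Eif2ak2, chr3:151749881-151750060 for Ifi44 and chr12:26469065-26469244 for Cmpk2.
Rsad2: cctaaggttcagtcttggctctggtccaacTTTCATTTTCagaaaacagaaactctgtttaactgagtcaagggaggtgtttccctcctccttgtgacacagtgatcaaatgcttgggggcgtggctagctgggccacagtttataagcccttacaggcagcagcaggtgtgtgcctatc
Bst2: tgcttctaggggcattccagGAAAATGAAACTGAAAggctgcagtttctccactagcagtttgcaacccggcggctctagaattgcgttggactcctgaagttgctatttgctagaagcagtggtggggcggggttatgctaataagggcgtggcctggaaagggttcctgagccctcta
Ifitm3: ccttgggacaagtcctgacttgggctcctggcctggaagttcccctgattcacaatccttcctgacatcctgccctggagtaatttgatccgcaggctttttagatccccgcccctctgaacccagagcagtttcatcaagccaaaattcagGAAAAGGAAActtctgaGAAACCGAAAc
Eif2ak2: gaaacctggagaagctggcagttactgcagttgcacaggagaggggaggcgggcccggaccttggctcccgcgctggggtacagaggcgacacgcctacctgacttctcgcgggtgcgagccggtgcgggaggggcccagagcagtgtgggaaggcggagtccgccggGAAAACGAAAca
Ifi44: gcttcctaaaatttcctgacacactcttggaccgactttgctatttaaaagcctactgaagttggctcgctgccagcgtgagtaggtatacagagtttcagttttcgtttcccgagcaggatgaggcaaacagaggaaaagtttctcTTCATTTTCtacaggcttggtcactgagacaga
Cmpk2: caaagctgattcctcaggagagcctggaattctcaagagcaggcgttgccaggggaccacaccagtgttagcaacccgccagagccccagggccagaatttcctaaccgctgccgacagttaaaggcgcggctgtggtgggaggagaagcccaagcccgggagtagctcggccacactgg
In Rsad2 the match lay 120 to 111 bases before the start, on the opposite strand. In Bst2 a pair of overlapping matches spanned bases 130 to 115 before the start. The matches of Ifitm3 and Eif2ak2 lay after the start instead, at bases 3 to 12 and 20 to 29 in Ifitm3 and at bases 19 to 28 in Eif2ak2. Eif2ak2 held another match to the shorter core at bases 25 to 33. It runs past the printed stretch, and its bases after 28 are not in capitals. The shorter match of Ifi44 crossed the start. Repeats of GAAA with any other spacing were not searched for and are left in lower case. The printed stretch of Ifi44 holds such repeats before the start, on the opposite strand. That Ifi44 had no match to the longer core therefore says only that this spacing was not found. It does not say that Ifi44 lacks an interferon-stimulated response element. Neither core was found in this window of Cmpk2, Ifi35 or Samhd1, which says only that these letters were not there.

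Between FI3OE and WT SVF-derived adipocytes, all 8 antiviral effectors rose. Each passed an adjusted p of 0.05 (20.2% of 16105 genes tested did so in this direction), and each had all 3 FI3OE libraries above all 3 WT libraries (24.1% of genes). The rise was 3.91-fold for Rsad2, the largest of the 8, and the smallest was that of Eif2ak2, a log2 fold change of 0.58. An additional log2 fold change of at least 1, the study's second cutoff, was met by 6 of them (1.99% of genes), Rsad2, Cmpk2, Ifi44, Bst2, Ifitm3 and Ifi35. Their median log2 fold change was 1.22, against -0.01 over all genes tested.

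Of the genes that act on nucleotides, Rsad2 (viperin; chromosome 12, 26442746 to 26456452, minus strand) makes a chain-terminating analogue of CTP that stops viral RNA polymerases. It measured 229, 217 and 212 CPM in the WT libraries and 863, 887 and 790.1 CPM in the FI3OE libraries. All FI3OE libraries were far above the WT libraries, which lay close together, and the log2 fold change was 1.97 (SE 0.049, adjusted p = 5.71e-10, edgeR). Cmpk2 (26469204 to 26479837, plus strand), a mitochondrial kinase of nucleoside monophosphates that can supply the CTP used by viperin, starts 12751 bases away from Rsad2 in the opposite direction. Its levels were 79.4, 71.4 and 78.4 CPM in WT and 293, 316 and 275 CPM in FI3OE, a log2 fold change of 1.96 (SE 0.059, adjusted p = 1.26e-09, edgeR). The groups did not overlap. The fitted changes of the neighbours were within 1 standard error of each other, and the ratio of Cmpk2 to Rsad2 in TPM, a unit per transcript length, was 0.48 to 0.502 in WT and 0.485 to 0.498 in FI3OE. Samhd1 (chromosome 2, 157097533 to 157135265, minus strand), which degrades the dNTPs that reverse transcriptases need, started at 155, 141 and 149 CPM in WT and reached 229.9, 226 and 213 CPM in FI3OE. It rose by less, with a log2 fold change of 0.61 (SE 0.044, adjusted p = 9.32e-07, edgeR).

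Of the genes that act at membranes, Bst2 (tetherin; chromosome 8, 71534255 to 71537456, minus strand) holds budding virions on the cell surface. It measured 60.9, 63.7 and 62.7 CPM in WT and 152, 169 and 136 CPM in FI3OE, with a log2 fold change of 1.30 (SE 0.069, adjusted p = 7.51e-08, edgeR). Its FI3OE libraries spread more widely than its WT libraries, from 136 to 169 CPM against 60.9 to 63.7 CPM. Ifitm3 (chromosome 7, 141009586 to 141010770, minus strand) blocks fusion of viral and endosomal membranes. Its WT libraries lay at 181.0, 184 and 180.4 CPM and its FI3OE libraries at 397, 406 and 377 CPM, a log2 fold change of 1.13 (SE 0.039, adjusted p = 3.33e-09, edgeR). Reads of Ifitm3 could be shared with its paralogs. Of these, Ifitm2 rose by a log2 fold change of only 0.18 (adjusted p = 0.00865, edgeR) and Ifitm1, at 8 to 31 reads per library, had one of 0.75 that missed the threshold (adjusted p = 0.158, edgeR).

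Eif2ak2 (PKR; chromosome 17, 78852564 to 78882573, minus strand), the kinase that is activated by double-stranded RNA and halts translation through eIF2alpha, measured 98.0, 90.5 and 92.7 CPM in WT and 148, 134 and 135 CPM in FI3OE. Every FI3OE library was above the highest WT library, and the log2 fold change of 0.58 (SE 0.045, adjusted p = 1.68e-06, edgeR) was below the fold-change cutoff, as was that of Samhd1. Ifi44 (chromosome 3, 151730922 to 151749960, minus strand), an interferon-induced protein whose mode of action is less well understood, rose from 53.6, 58.5 and 55.0 CPM to 185, 188 and 174 CPM. Its log2 fold change of 1.73 (SE 0.048, adjusted p = 1.08e-09, edgeR) was the third highest. Ifi35 (chromosome 11, 101448407 to 101458698, plus strand), which forms a complex with the related protein NMI, rose from 35.96, 38.95 and 37.28 CPM to 76.3, 76.6 and 73.0 CPM. At a log2 fold change of 1.03 (SE 0.046, adjusted p = 1.81e-08, edgeR) it lay just past the fold-change cutoff, and it fell short of it with the offset for transcript length (0.96) and without WT replicate 1 (0.99). Gm11626, which overlaps Ifi35 on the other strand and cannot be told apart by this kit where they overlap, was assigned at most 16 reads in any library. Nmi itself rose by a log2 fold change of 0.76 (adjusted p = 0.00104, edgeR).

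**Figure D1:**
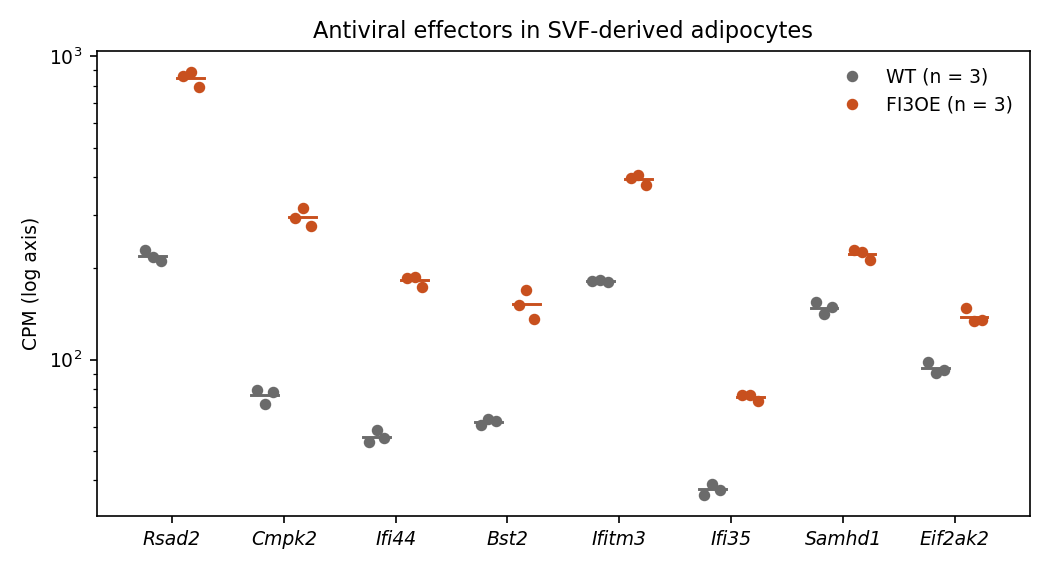
Level of the 8 antiviral effectors in each library of SVF-derived adipocytes, in CPM on a log axis, with grey points for WT and orange points for FI3OE (n = 3 each) and a line at each group's mean. For every gene the 3 FI3OE points lie above the 3 WT points, as in Rsad2 (790.1 to 887 CPM against 212 to 229 CPM) and Eif2ak2 (134 to 148 CPM against 90.5 to 98.0 CPM).

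Other effectors of the pathway rose as well. Of 38 other antiviral interferon-stimulated genes, 36 were tested, of which 33 rose and 0 fell. Over all genes tested, 20.2% rose and 16.8% fell. The 3 that did not pass the test were Apobec3, Ch25h and Ifitm1, and the median log2 fold change of the list was 1.19 (edgeR). The largest rises in that list were those of Ifit3b (2.45), Ifit3 (2.34) and Oasl1 (2.34), although the near-identical copies Ifit3 and Ifit3b may share reads. The signalling genes were mixed. Of 14 tested, 7 rose, 2 fell and 5 did not pass, and Irf7, the interferon regulatory factor that amplifies the response, was the only one to meet the fold-change cutoff (log2 fold change 1.23). Irf9, a DNA-binding factor of the interferon response, rose by 0.63. Transcripts of interferon beta were near absent, with 1 read of Ifnb1 in 1 FI3OE library and 0 reads in the other 5, where a count of 0 allows up to 3 reads, or 0.0812 to 0.139 CPM. Such limits cover counting error only.

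Around PKR, 6 of 11 other eIF2alpha kinases and targets of the pathway fell in FI3OE (16.8% of genes did), 2 rose and 3 did not pass the test. Trib3 (log2 fold change -1.95) was the only one past the fold-change cutoff, and Ddit3 (-0.93) and Eif2ak3 (-0.64), the kinase of the endoplasmic reticulum, were among the others that fell. Atf3, a stress-induced transcription factor, rose by 0.77, and Eif2s1, which encodes eIF2alpha, by 0.19. Of 15 genes of nucleotide metabolism, 5 rose, 1 fell and 9 did not pass, none of them past the fold-change cutoff in edgeR. Cmpk1, the cytosolic counterpart of Cmpk2, rose by a log2 fold change of 0.31 (adjusted p = 8.64e-05). Of 7 dynamin-related GTPases, the family of the Mx proteins, 1 rose and 1 fell. The macrophage markers, whose sum was 2280 to 2430 CPM in WT and 2190 to 2210 CPM in FI3OE, had 3 of 15 genes higher and 3 lower, and the markers of lymphocytes and plasmacytoid dendritic cells summed to at most 1.54 CPM. The part of macrophages in the values of the effectors was not tested.

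For 7 of the effectors, all but Ifitm3, a share of the reads falls on transcripts that are annotated without a full reading frame, such as retained introns and targets of nonsense-mediated decay. In SVF-derived adipocytes, the share on protein-coding transcripts of Ifi35 was 80.95% to 84.32% in WT and 87.24% to 88.08% in FI3OE. All FI3OE libraries were above all WT libraries for Ifi35, Cmpk2 (92.63% to 93.04% against 93.77% to 95.43%), Ifi44 (87.85% to 89.46% against 89.88% to 91.07%) and Samhd1 (83.14% to 87.98% against 88.28% to 89.81%). That is 4 of the 7, where 18.9% of 5507 genes with at least 500 reads in each of these libraries had the same pattern. The shares of Rsad2 (93.30% to 95.06% and 94.13% to 94.50%), Bst2 and Eif2ak2 overlapped between the groups. These shares rest on the authors' assignment of reads to transcripts, and no test of them was run.

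**Figure D2:**
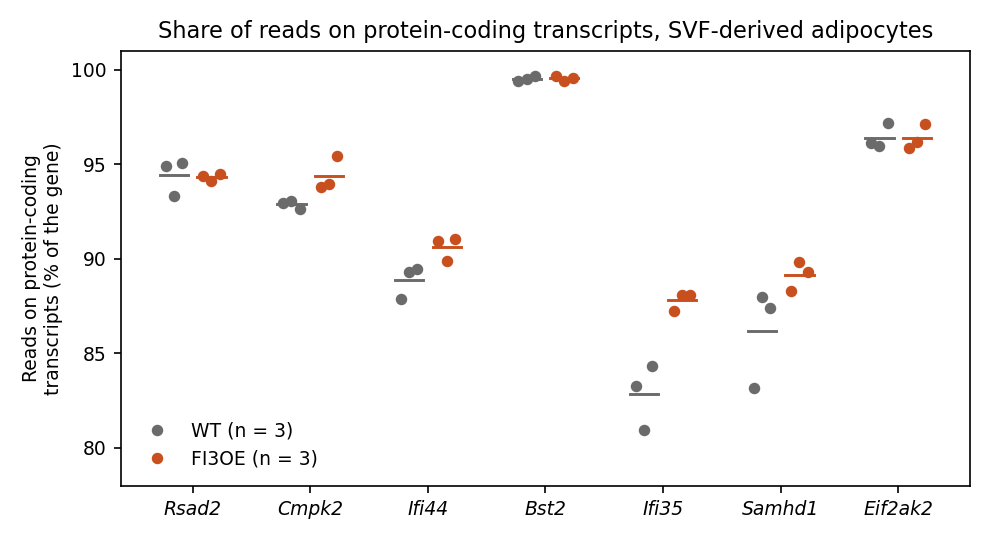
Percent of each gene's estimated reads on protein-coding transcripts in SVF-derived adipocytes, with grey points for WT and orange points for FI3OE libraries (n = 3 each), lines at the means and an axis that begins at 78%. The groups are apart for Cmpk2, Ifi44, Ifi35 and Samhd1 and overlap for Rsad2, Bst2 and Eif2ak2.

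Between FI3KO and WT TRAP RNA the fitted differences were smaller in size. Of the 7 effectors that passed the filter on low counts in TRAP RNA, 3 fell in FI3KO, Ifitm3, Eif2ak2 and Samhd1, at an adjusted p of 0.05 (18.3% of 13624 genes did so in this direction). None met the fold-change cutoff in edgeR (4.87% of genes were past it in this direction), nor in DESeq2, while 4 were lower at an unadjusted p under 0.05 (22.6% of genes were). All 7 had a fitted log2 fold change below 0, with a median of -0.26 against 0.02 over all genes tested. Before the values, the libraries themselves have to be described. In FI3KO, replicates 1 and 2 stood apart from replicates 3 to 6, with a chi-square per degree of freedom of 111 to 268 for pairs across these sets and of 16.9 to 86.3 for pairs within them. In WT the sets were not apart in this way, since pairs across them had 74.4 to 130 and pairs among replicates 3 to 6 had 8.41 to 126. WT replicates 1 and 2 were closer to each other than any other pair within a group (2.54 over 13787 genes). They were still apart by more than sampling noise, and pairs of SVF-derived libraries within a group had 3.85 to 7.73. The effectors are also given within these sets of TRAP replicates, a split that was known from earlier results of these data.

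Ifitm3 showed the largest fall. It ranged from 5.46 to 7.74 CPM in WT (median 6.34) and from 2.45 to 4.96 CPM in FI3KO (median 3.81), with every FI3KO library below every WT library. The log2 fold change was -0.71 (SE 0.150, adjusted p = 0.00311, edgeR), or 0.610 of the WT level, and each library left out in turn kept the adjusted p between 0.00208 and 0.00967. Its paralog Ifitm2, the more abundant of the pair in this RNA, fell too (log2 fold change -0.54, adjusted p = 0.000987, edgeR), from a median of 62.3 CPM to 42.6 CPM. Eif2ak2 ranged from 33.1 to 43.5 CPM in WT (median 38.4) and from 26.8 to 32.4 CPM in FI3KO (median 30.4), a log2 fold change of -0.28 (SE 0.064, adjusted p = 0.00494, edgeR). Its groups did not overlap in CPM but did in TPM. Samhd1 ranged from 23.81 to 27.05 CPM in WT (median 26.05) and from 17.26 to 23.80 CPM in FI3KO (median 21.03), so that the groups were only just apart. Its log2 fold change was -0.26 (SE 0.076, adjusted p = 0.0187, edgeR). Such separation in CPM was found for these 3 effectors and for 9.82% of genes.

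**Figure D3:**
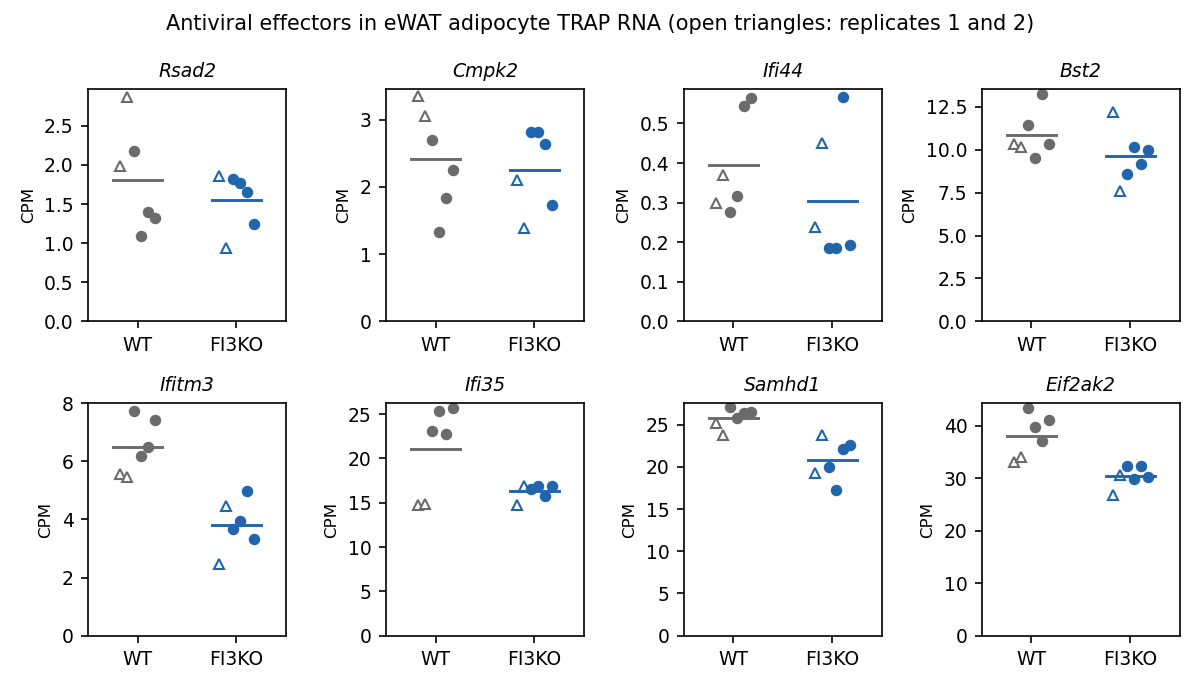
Level of the 8 antiviral effectors in each TRAP library, in CPM on axes that begin at 0, with grey symbols for WT and blue symbols for FI3KO (n = 6 each), open triangles for replicates 1 and 2, filled circles for replicates 3 to 6 and a line at each group's mean. Ifitm3, Eif2ak2 and Samhd1 are lower in all FI3KO libraries, and Ifi35 is lower than in WT replicates 3 to 6 (22.8 to 25.7 CPM) but not than in WT replicates 1 and 2 (14.7 and 14.9 CPM).

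Ifi35 depended on the set of libraries. Over all 12 it ranged from 14.7 to 25.7 CPM in WT and from 14.7 to 16.9 CPM in FI3KO, a log2 fold change of -0.32 that missed the threshold (adjusted p = 0.0662, edgeR) and passed it in 7 of 24 alternatives. WT replicates 1 and 2 lay at 14.7 and 14.9 CPM, among the FI3KO libraries, and WT replicates 3 to 6 at 23.1, 25.4, 22.8 and 25.7 CPM, above all of them. In replicates 3 to 6 alone the log2 fold change was -0.51 (adjusted p = 0.000144) and in replicates 1 and 2 alone it was 0.16 (adjusted p = 0.348). The difference between the sets was -0.62 (SE 0.111, adjusted p = 0.002 for the interaction in edgeR). It stayed past the threshold in all 19 alternatives, which were chosen after seeing the data, with adjusted p between 4.01e-05 and 0.0174.

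The genes with the largest rise in FI3OE had low levels in TRAP RNA. Rsad2 had 36 to 109 reads in WT (1.09 to 2.87 CPM, median 1.70) and 29 to 67 in FI3KO (0.934 to 1.86 CPM, median 1.71), with a log2 fold change of -0.19 (SE 0.258, adjusted p = 0.59, edgeR). Cmpk2 ranged from 1.32 to 3.35 CPM in WT (median 2.48) and from 1.39 to 2.82 CPM in FI3KO (median 2.37), a log2 fold change of -0.07 (SE 0.243, adjusted p = 0.851, edgeR). Over all 12 libraries the genotypes overlapped for both genes, although in replicates 1 and 2 alone the FI3KO libraries were below the WT libraries for each, and the standard errors of this pair were the widest of the 7. Neither direction was stable, since the log2 fold change in replicates 3 to 6 was 0.16 for Rsad2 and 0.35 for Cmpk2, and in replicates 1 and 2 it was -0.76 and -0.82. The difference between the sets passed the threshold for Cmpk2 (1.21, SE 0.402, adjusted p = 0.0456, edgeR) but no longer in 12 of 19 alternatives, and not for Rsad2 (0.94, adjusted p = 0.156). Of the 8 effectors, Cmpk2 and Ifi35 were thus the 2 called for that difference, against 24.8% of genes. Bst2 ranged from 9.50 to 13.3 CPM in WT (median 10.3) and from 7.57 to 12.2 CPM in FI3KO (median 9.58) and did not pass (log2 fold change -0.12, adjusted p = 0.441, edgeR). Ifi44 had 9 to 17 reads in WT and 5 to 23 in FI3KO and did not pass the filter on low counts in this comparison.

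Within the sets, Ifitm3, Eif2ak2, Samhd1 and Ifi35 were lower in FI3KO in replicates 3 to 6 (24.8% of genes were). The log2 fold changes there were -0.75 for Ifitm3 (adjusted p = 0.00133), -0.32 for Eif2ak2 (adjusted p = 0.00106) and -0.32 for Samhd1 (adjusted p = 0.0131, edgeR), and Bst2 did not pass (-0.185, adjusted p = 0.204). In edgeR 0 of the 7 effectors passed in replicates 1 and 2 alone (1.98% of genes did), where 2 libraries stood against 2 and the log2 fold changes were -0.60 for Ifitm3 (adjusted p = 0.203), -0.17 for Eif2ak2 (adjusted p = 0.27), -0.12 for Samhd1 (adjusted p = 0.494) and 0.009 for Bst2 (adjusted p = 0.985). Macrophage markers differed between the sets too. The sum of the 15 markers was 74.3 to 103 CPM in WT replicates 3 to 6 against 16.7 to 19.3 CPM in FI3KO replicates 3 to 6, and 40 to 40.5 CPM against 36.3 to 47.3 CPM in replicates 1 and 2. In WT both this sum and Ifi35 were higher in replicates 3 to 6, whereas in FI3KO the sum was lower there and the mean of Ifi35 was 16.5 CPM against 15.8 CPM. The means of Ifitm3, Eif2ak2, Samhd1, Bst2 and Ifi44 were also higher in WT replicates 3 to 6, and those of Rsad2 and Cmpk2 were lower. In FI3KO replicates 3 to 6 the means of Samhd1, Bst2 and Ifi44 were lower, and those of the other effectors were higher. Over all libraries, 10 of the 12 macrophage markers tested were lower in FI3KO and 1 was higher, and none of the 15 was at 0 in every library of a group. Fibroblast and preadipocyte markers summed to 1910 to 2680 CPM in WT replicates 3 to 6 and to 927 to 1380 CPM in FI3KO replicates 3 to 6, against 1430 to 1450 and 1450 to 1660 CPM in replicates 1 and 2. Of the 9 tested over all libraries, 2 were lower in FI3KO, 1 was higher and 6 did not pass, with Col1a1, a collagen chain, at a log2 fold change of -1.82 (adjusted p = 0.0043) and Dcn, a proteoglycan of the matrix, at 1.36 (adjusted p = 0.00117, edgeR). Endothelial markers summed to 70.3 to 117 CPM in FI3KO replicates 1 and 2, against 37.2 to 41.7 CPM in WT replicates 1 and 2, 26.6 to 39.7 CPM in FI3KO replicates 3 to 6 and 28.5 to 56.5 CPM in WT replicates 3 to 6. Markers of lymphocytes and plasmacytoid dendritic cells were likewise highest in FI3KO replicates 1 and 2, at 1.13 to 1.39 CPM, and summed to at most 0.72 CPM in the other TRAP libraries. The part of these cells in the values of the antiviral effectors was not tested.

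**Figure D4:**
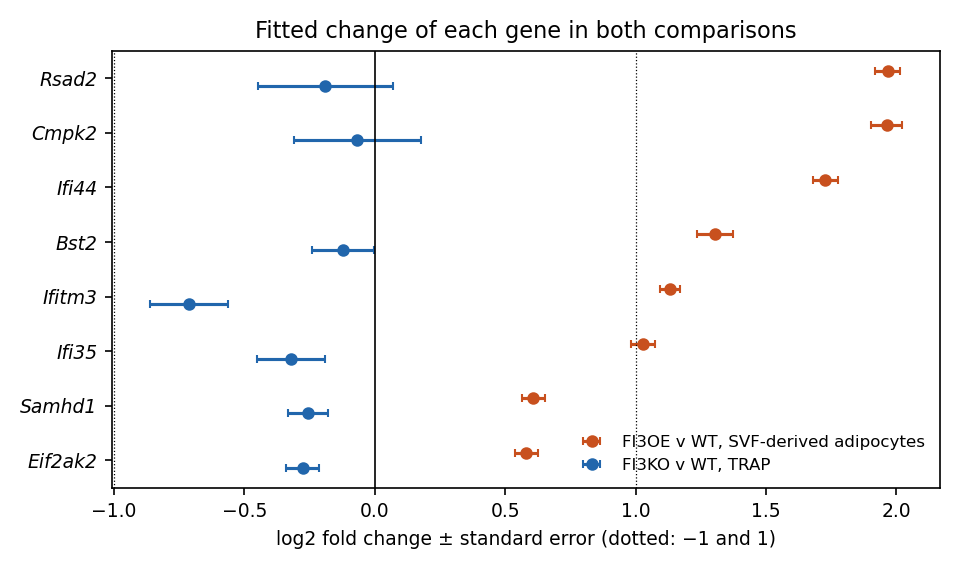
Fitted log2 fold change of each effector with its standard error, in orange for FI3OE against WT SVF-derived adipocytes (n = 3 each) and in blue for FI3KO against WT TRAP RNA (n = 6 each), with dotted lines at -1 and 1. Values run from 0.58 to 1.97 in the first comparison and from -0.71 to -0.07 in the second, in which Ifi44 did not pass the filter on low counts.

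The other genes of the pathway, given over all 12 libraries, were mixed in TRAP RNA too. Of 33 other antiviral interferon-stimulated genes tested, 7 fell, 4 rose and 22 did not pass. Over all 13624 genes tested, 18.3% fell at the same adjusted p, and 4.87% fell past the fold-change cutoff too. Zbp1, a sensor of Z-form nucleic acids, was the only one of the 33 past that cutoff (log2 fold change -1.19, adjusted p = 0.00295, edgeR). Of 14 signalling genes, 5 fell and 2 rose, with Socs1, an inhibitor of JAK kinases, the only one past that cutoff (1.15, adjusted p = 0.0205, edgeR). Irf7 (0.05, adjusted p = 0.875, edgeR) did not pass. The eIF2alpha list had 4 lower and 1 higher of 11, that of nucleotide metabolism 2 lower and 6 higher of 15, and that of dynamin-related genes 1 lower and 1 higher of 7. The share of 18.3% is the reference for the lower counts of all these lists. No such share is given here for the higher counts.

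The baseline level of the effectors differed widely between the WT groups. In WT SVF-derived adipocytes, Ifitm3 led with 608.5 ± 12.9 TPM (SD, n = 3), ahead of Bst2 with 225.9 ± 5.8 TPM, Samhd1 with 112.4 ± 2.23 TPM, Rsad2 with 105.1 ± 4.32 TPM and Ifi35 with 69.39 ± 5.02 TPM. Cmpk2 (51.6 ± 2.59 TPM) and Eif2ak2 (47.09 ± 2.98 TPM) overlapped, and Ifi44 was lowest (29.65 ± 2.42 TPM). Every other neighbour in that order was separated in all libraries. In FI3OE the order changed, with Rsad2 (399 ± 21 TPM) and Cmpk2 (196.9 ± 9.5 TPM) above Samhd1 (171.2 ± 6.1 TPM), Ifitm3 still first at 1269 ± 6.45 TPM and Eif2ak2 last at 68.2 ± 5.54 TPM.

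In WT TRAP RNA, Bst2 (42.36 ± 4.43 TPM, SD, n = 6) and Ifi35 (40.83 ± 9.87 TPM) came first and overlapped. Ifitm3 (23.85 ± 2.97 TPM) and Samhd1 (21.01 ± 0.845 TPM) followed, also with overlap, and then Eif2ak2 (15.95 ± 1.64 TPM). Below these in every library were Cmpk2 (1.871 ± 0.457 TPM) and Rsad2 (0.8582 ± 0.321 TPM), which overlapped, and then Ifi44 (0.1868 ± 0.0569 TPM), which was apart. The ratio of Cmpk2 to Rsad2, which was near 0.5 in culture, was 1.46 to 3.85 in WT TRAP RNA (median 2.07) and 1.47 to 2.17 in FI3KO TRAP RNA (median 2.06). The highest WT ratios, 3.85 and 3.13 in replicates 6 and 4, were raised by Cmpk2-203, a retained-intron transcript of 330 bases. It held only 3.1 and 3.2 reads there, but 1.016 and 0.842 TPM of the 2.419 and 1.667 TPM of Cmpk2. In FI3KO replicate 2 it held 3.5 reads and 1.128 TPM.

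**Figure D5:**
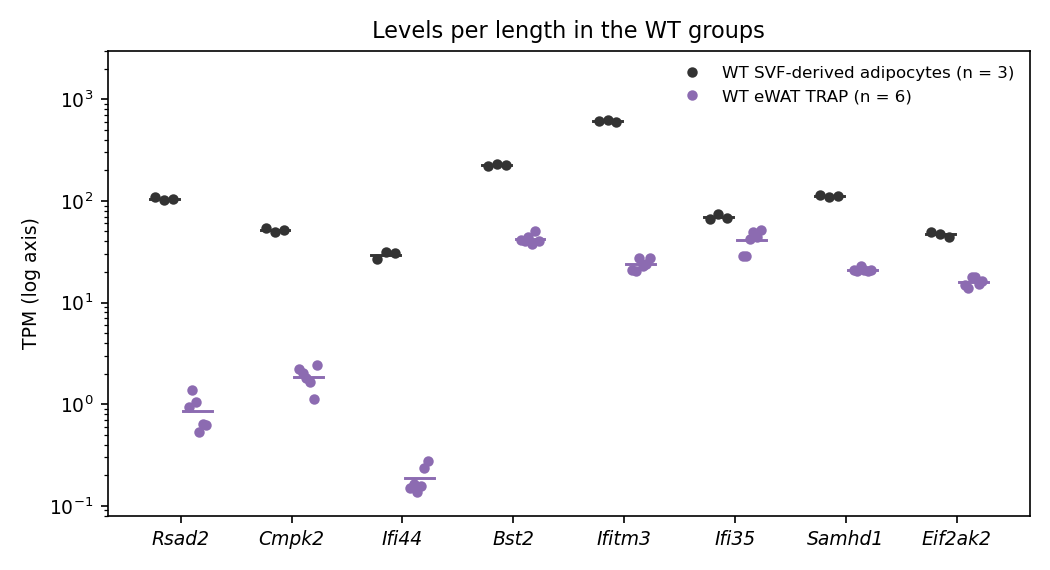
Level of the 8 antiviral effectors in each library of the WT groups, in TPM on a log axis, with black points for SVF-derived adipocytes (n = 3), purple points for eWAT TRAP RNA (n = 6) and lines at the means. Every TRAP library lies below every SVF library for each gene, with the narrowest gap for Ifi35. Ifi44 had only 9 to 17 reads in each WT TRAP library.

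Set against WT SVF-derived adipocytes, WT TRAP RNA held less of all 8 effectors in every library, in CPM as in TPM (55.9% of 16454 genes by CPM). At an adjusted p of 0.05, 7 of the 8 were lower (42.1% of genes), and 6 also met the fold-change cutoff (29.5% of genes). Both counts include Ifi44, which entered this fit only through the SVF libraries. Besides it, Rsad2, Cmpk2, Ifitm3, Bst2 and Samhd1 met both cutoffs, and Eif2ak2 met that for the adjusted p alone. The fitted log2 differences, after TMM scaling of the libraries in edgeR, were -6.69 for Ifi44, -6.44 for Rsad2, -4.51 for Cmpk2 and -4.35 for Ifitm3, with standard errors between 0.091 and 0.216. Ifi44, with 9 to 17 reads per WT TRAP library, passed the filter on low counts here only through the SVF libraries, where it is high, and it was dropped with at least 10 counts required in every library. The differences were smaller for Bst2 (-2.07), Samhd1 (-2.07) and Eif2ak2 (-0.84), and that of Ifi35 (-0.37, SE 0.173) did not pass (adjusted p = 0.0693, edgeR), although it did in 6 of 16 alternatives. The median was -3.21 with Ifi44 included, against -0.07 over all genes tested. With Ifi44 left out, the middle value was that of Bst2, -2.07. Without that scaling the median of all genes was -0.53, and the ratios of plain CPM were lower too, such as -7.14 for Ifi44 and -0.83 for Ifi35. The genes with the greatest rise in FI3OE, Rsad2, Cmpk2 and Ifi44, were among those with the lowest level in TRAP RNA. The sum of the macrophage markers differed in the same direction, at 2280 to 2430 CPM in WT culture and 40 to 103 CPM in WT TRAP RNA. Of the 15 markers, 14 were lower in WT TRAP RNA at an adjusted p of 0.05 and 1 was higher, by 4.80 on the log2 scale (edgeR). Depot, culture, virus, diet and the preparation of the RNA all differ between these groups and cannot be told apart.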

How the data were processed

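RNA was sequenced by the authors after ribosomal RNA depletion, with a kit that does not mark strand. Reads were filtered with fastp and quantified with Salmon (version 1.4.0) against the GENCODE annotation of GRCm38, per the labels and the study's methods. The deposited files give, for 118733 transcripts per library, Salmon's estimated counts, which are neither normalized nor whole, along with the authors' TPM and effective length values. Effective lengths were used only for the length offset.

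Transcripts were assigned to genes with GENCODE M21 by identifier without version, which matched 117850. The rest held 0.375% to 1.079% of the reads of a library and each counted as a gene by itself, for 33440 genes in total. Estimated counts were summed per gene and rounded. CPM scales a gene's estimated count to the library's total. Each comparison was fitted on its own groups with edgeR 4.0.16 in R 4.3.3 (filterByExpr, TMM, quasi-likelihood test, Benjamini-Hochberg adjustment over all genes tested, no covariates), with cutoffs of 0.05 for the adjusted p and 1 for the absolute log2 fold change, as in the study. The fit was tested on simulated data. TPM summed per gene was used for levels, without a test. Promoters came from RefSeq (GRCm38.p6).

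The members, the gene lists and the split of the TRAP libraries were chosen with earlier results of these data known. Genes named besides the members were up to 3 of each list with the largest change past the cutoffs, up to 2 with the highest level, and paralogs or neighbours of members. Genes of these lists named outside that rule (Eif2ak3, Ddit3, Atf3, Eif2s1, Irf9, Apobec3 and Ch25h) were chosen after their values were seen. Ifnb1 was named outside that rule too, as a gene of interferon itself. Alternatives were DESeq2 size factors, the Wald test of DESeq2 1.42.0, omission of the low-count filter, at least 10 counts in every library, an offset for transcript length, unmatched transcripts left out, all 18 libraries in a single fit, a block for the replicate number, omission of each library in turn, and, for TRAP, the replicate sets. Mx1, Mx2 and Oas1b were not analysed here.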

Additional observations from a re-analysis of the deposited data

Results flagged for a closer look

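The difference in the effect of FI3KO between the sets of TRAP replicates passed the test for 2 of the 8 effectors, Ifi35 and Cmpk2, a share close to that of all genes (24.8%). For Ifi35 the effect was lower by 0.62 on the log2 scale in replicates 3 to 6 than in replicates 1 and 2 (-0.62, standard error 0.111, adjusted p = 0.002, interaction in edgeR). The 4 WT libraries of replicates 3 to 6 lay at 22.8 to 25.7 CPM, and the 2 of replicates 1 and 2 at 14.7 and 14.9 CPM, while FI3KO libraries of both sets lay at 14.7 to 16.9 CPM.

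For Cmpk2 the same difference was 1.21 (standard error 0.402, adjusted p = 0.0456, interaction in edgeR). WT replicates 1 and 2 lay at 3.35 and 3.06 CPM and WT replicates 3 to 6 at 1.32 to 2.70 CPM, whereas FI3KO replicates 1 and 2 lay at 2.10 and 1.39 CPM and FI3KO replicates 3 to 6 at 1.73 to 2.82 CPM. Its adjusted p was between 0.0241 and 0.641 over 19 alternatives chosen after seeing the data, and missed the threshold in 12 of them. The 8 effectors and Irf3 were also checked for a single outlying library in the TRAP groups, 18 checks in all. Each looked at the gap of the lowest or highest library to the next, and none stood out from the other 5. Such a check cannot flag 2 libraries that lie together, such as WT replicates 1 and 2 for Ifi35.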

How the results depend on the processing

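The counts of effectors called in FI3OE (8 at the adjusted p, 6 at both cutoffs) and in WT TRAP RNA against WT SVF-derived adipocytes kept within 1.5 times under each alternative run, with 5 to 6 past both cutoffs when FI3OE or WT SVF libraries were left out in turn. In FI3KO, 3 effectors were called, 3 to 4 when single libraries were left out and 0 in replicates 1 and 2 alone, and the 0 past both cutoffs became 3 with the adjusted p alone. For the difference between replicate sets, 2 became 1 with DESeq2 size factors, with the length offset and with WT replicates 1 and 2 summed, and 1 to 2 when single libraries were left out.

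Over all genes, the 583 called in FI3OE became 342 in the fit of all 18 libraries and 5960 without the fold-change cutoff. The 901 in FI3KO became 574 with at least 10 counts in every library, 1355 in the 18-library fit, 1868 in replicates 3 to 6, 191 in replicates 1 and 2 and 5095 without the fold-change cutoff. The 7719 between the WT groups became 4035 with at least 10 counts and 13195 without that cutoff. The 3718 for the difference between sets became 2080 with WT replicates 1 and 2 summed and 2016 to 4077 with single libraries left out.

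Directions turned in TRAP RNA only, among the comparisons run. The log2 fold change of FI3KO became 0.16 in replicates 3 to 6 for Rsad2, and for Cmpk2 0.35 in replicates 3 to 6, 0.025 with WT replicates 1 and 2 summed, and 0.031, 0.049 and 0.015 without FI3KO replicate 2, WT replicate 1 and WT replicate 2 (between -0.192 and 0.049 over all libraries left out in turn). In replicates 1 and 2 it became 0.009 for Bst2 and 0.16 for Ifi35. The difference between sets became 0.263 for Bst2 without FI3KO replicate 1 and 0.375 for Ifitm3 without FI3KO replicate 2 (between -0.473 and 0.263, and between -0.443 and 0.375, over all libraries left out in turn). Irf3 became 0.71 (adjusted p = 0.00181) with the length offset, and lost its call in replicates 1 and 2 (-0.175, adjusted p = 0.452) and with the replicate number as a block (-0.36, adjusted p = 0.0538). The cause was not tested.

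The replicate numbers did not pair the libraries, since same-numbered libraries had correlations of their deviations between -0.292 and 0.106. With the number as a block, the counts of effectors at the adjusted p were 8 in FI3OE and 3 in FI3KO, the same as without it, while those of all genes moved to 579 and 736. Of the 9 pairs of same-numbered libraries, 1 correlated best with its own number. In TRAP RNA, Rsad2 and Cmpk2 had 29 to 116 reads per library, and Ifi44, with 5 to 23 reads, did not pass the filter on low counts in FI3KO against WT, though it did in the fit of the replicate sets.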
